A study of Mus musculus with 11 samples.

Results

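Vanins, acyl-CoA thioesterases and genes that the liver induces in fasting were followed in livers lacking glutathione reductase and in normal livers. The set held 8 genes, Vnn1, Vnn3, Acot1, Acot2, Acot3, Pdk4, Fgf21 and Angptl4, out of 12393 genes that the array annotation names through a probe set of 1 symbol. All 9 probe sets given to exactly 1 of these symbols were used, 2 for Angptl4 and 1 for each other gene. Vnn1 was chosen by its log2 values, which were uneven among the Gsr-null samples, so they are given as a description with no test. The other genes were put beside it by function, with earlier results of these data known.

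Liver RNA came from 6 Gsr-null mice and 5 wild-type (WT) mice, each hybridised to its own single-colour array. Both groups were male, C57BL/6J by label, 15 to 20 weeks old, and were harvested between 2 and 4 in the afternoon. Gsr-null mice lack glutathione reductase, the NADPH-dependent enzyme that returns oxidised glutathione to its reduced form. The labels do not name the allele, a litter or a feeding state, and no treatment was applied to either group. Samples are numbered within each genotype by the replicate number of their titles, and a shared number does not pair them. Titles of Gsr-null samples also hold a code in brackets with another number, which is not used here. Gsr-null samples 4 and 5 are thus not those with 4 and 5 in brackets.

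Vanin-1 is a pantetheinase that sits on the outer cell surface and splits pantetheine into pantothenate, the precursor of coenzyme A, and cysteamine. Acyl-CoA thioesterases release free fatty acids and coenzyme A from acyl-CoA. In mouse liver Vnn1, the Acot genes, Pdk4, Fgf21 and Angptl4 are known targets of PPAR-alpha, the fatty acid receptor that drives fatty acid oxidation when food is withdrawn.

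Vnn3 lies next to Vnn1 on chromosome 10 in the gene order of assembly GRCm38.p6, and Acot1, Acot2 and Acot3 lie together on chromosome 12. RefSeq promoter windows (GRCm38.p6) were at hand for 6 of the 8 members, and the 250 bases before the transcription start were searched on both strands. The windows of Vnn3, the gene beside Vnn1, and of the Acot cluster are shown, and those of Pdk4 and Fgf21 are not. Capitals mark CCAAT or its reverse complement ATTGG, and all 4 lie on the plus strand, at chr10:23851212-23851461, chr12:84009252-84009501, chr12:83987611-83987860 and chr12:84051894-84052143 (the first of 2 listed starts of Acot3).
Vnn3: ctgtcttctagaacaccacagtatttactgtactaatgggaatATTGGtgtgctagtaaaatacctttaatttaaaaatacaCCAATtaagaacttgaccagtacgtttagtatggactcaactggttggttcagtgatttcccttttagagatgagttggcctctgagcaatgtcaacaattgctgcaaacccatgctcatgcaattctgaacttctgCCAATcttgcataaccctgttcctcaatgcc
Acot1: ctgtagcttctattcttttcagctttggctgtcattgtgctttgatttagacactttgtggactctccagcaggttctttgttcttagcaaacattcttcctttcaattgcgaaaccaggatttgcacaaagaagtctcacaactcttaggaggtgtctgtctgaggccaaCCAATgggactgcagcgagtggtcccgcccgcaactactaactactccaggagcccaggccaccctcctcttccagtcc
Acot2: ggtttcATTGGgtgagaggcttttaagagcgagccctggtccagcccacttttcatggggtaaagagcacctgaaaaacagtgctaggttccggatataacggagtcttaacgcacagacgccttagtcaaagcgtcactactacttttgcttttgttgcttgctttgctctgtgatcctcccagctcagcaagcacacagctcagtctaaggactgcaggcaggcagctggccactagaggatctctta
Acot3: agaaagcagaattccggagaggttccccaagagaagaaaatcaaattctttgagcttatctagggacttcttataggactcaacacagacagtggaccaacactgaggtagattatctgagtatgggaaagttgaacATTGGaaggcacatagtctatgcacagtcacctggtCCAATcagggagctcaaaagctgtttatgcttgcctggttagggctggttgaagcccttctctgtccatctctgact

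The CCAAT motif was present in 5 of the 6 windows, all but that of Fgf21, and in 33.8% of all 32851 RefSeq windows of that length. In Acot1 it began at base -79 and in Acot3 at -77 from the start. The nuclear receptor half-site AGGTCA was in 0 of the 6 windows and in 14.0% of all. The direct repeat AGGTCANAGGTCA was in 0 of 6 and in 0.0335% of all, and the forkhead motif TTGTTTAC in 0 of 6 and in 1.07% of all. Fgf21 alone held the E-box CACGTG, which 6.02% of all windows hold, and the TATA box TATAAA, which 12.4% hold. The half-site overlaps the direct repeat and the other motifs do not overlap each other in these windows. These are matches of letters in a short window and say nothing of factor binding.

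All values are log2 expression values, and a probe set counted as measured above the floor, and was tested, when it exceeded 4 in at least 5 samples. Of the 22626 probe sets that are not controls 9560 did so (42.3%), and 5 of the 9 member probe sets, those of Vnn1, Vnn3, Acot1 and Acot3 and 1 of Angptl4. The libraries differed in ways that cross genotype. Signal from the 3' end over the 5' end of 2 control transcripts, Gapdh and Actb, reads out how intact and how fully labelled the RNA was. This 3' minus 5' difference (log2) was 0.572 to 0.703 in Gsr-null samples 1, 2 and 3 and 0.544 to 0.631 in WT samples 2 and 4. It was 1.20 to 1.25 in Gsr-null samples 4, 5 and 6 and 1.34 to 1.75 in WT samples 1, 3 and 5. The floor of the arrays, their 5th percentile, stood at 1.79 for Gsr-null sample 2 and 1.76 for Gsr-null sample 3, and at 1.54 to 1.62 for all others. Gsr itself was 4.71 to 5.29 in Gsr-null livers and 6.62 to 6.93 in WT livers (limma adjusted p = 1.82e-05).

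The 5 measured hepatocyte markers summed to 68.7 to 69.9 in Gsr-null livers and to 68.4 to 69.9 in WT livers on the log2 scale. Markers of adipocytes, cholangiocytes, lymphocytes and kidney proximal tubule, a site where vanins are also known to be expressed, had 0 members above the filter. The highest value of any kidney marker in any sample was 3.26. Other lists spread more widely among Gsr-null livers. Kupffer cell markers summed to 36.6 to 44.4 there and 37.6 to 42.6 in WT livers. Stellate cell markers summed to 23.2 to 29.5 and 23.7 to 25.6. Of the 3 stellate markers above the filter 1, Col3a1, was highest in Gsr-null samples 4 and 5, at 9.07 and 8.81. The part of cell composition in the member values was not tested.

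Vnn1 lay near the filter level in 4 of the 6 Gsr-null livers and near the WT level in the other 2. It was 3.15, 4.12, 4.17, 10.55, 9.60 and 4.26 in Gsr-null samples 1 to 6, against 10.05, 9.76, 8.84, 9.46 and 8.94 in WT samples 1 to 5. Samples 4 and 5 lay at or above the WT level, while samples 2, 3 and 6 lay just above the filter level of 4 and sample 1 below it. The spread among Gsr-null samples was 7.40, against 1.21 among WT samples, and its lower end lies below the level of 4 taken as measured, so no fold is drawn from it. Of all 22626 probe sets it had the seventh widest range among Gsr-null livers and ranked 1520 by range among WT livers. The mean was 5.98 ± 3.22 in Gsr-null livers (SD, n = 6) and 9.41 ± 0.519 in WT livers (SD, n = 5), and a mean describes no single Gsr-null liver well. The difference of the means was -3.43 (SE 1.27). Because whole liver was measured, fewer cells of a type and less RNA per cell cannot be told apart.

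Vnn3, the other vanin gene measured, varied less but had the same 2 samples on top. It was 5.95, 6.80, 6.98, 8.61, 7.57 and 4.29 in Gsr-null samples 1 to 6, against 8.11, 8.78, 7.49, 7.96 and 8.0 in WT samples 1 to 5. Samples 1, 2, 3 and 6 again lay below every WT sample, and sample 6 was the lowest for Vnn3 whereas sample 1 was the lowest for Vnn1. Vnn3 differed by -1.37 between genotypes (SE 0.60, limma adjusted p = 0.561), and by -0.88 without Gsr-null sample 6, and the groups overlapped.

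**Figure D1:**
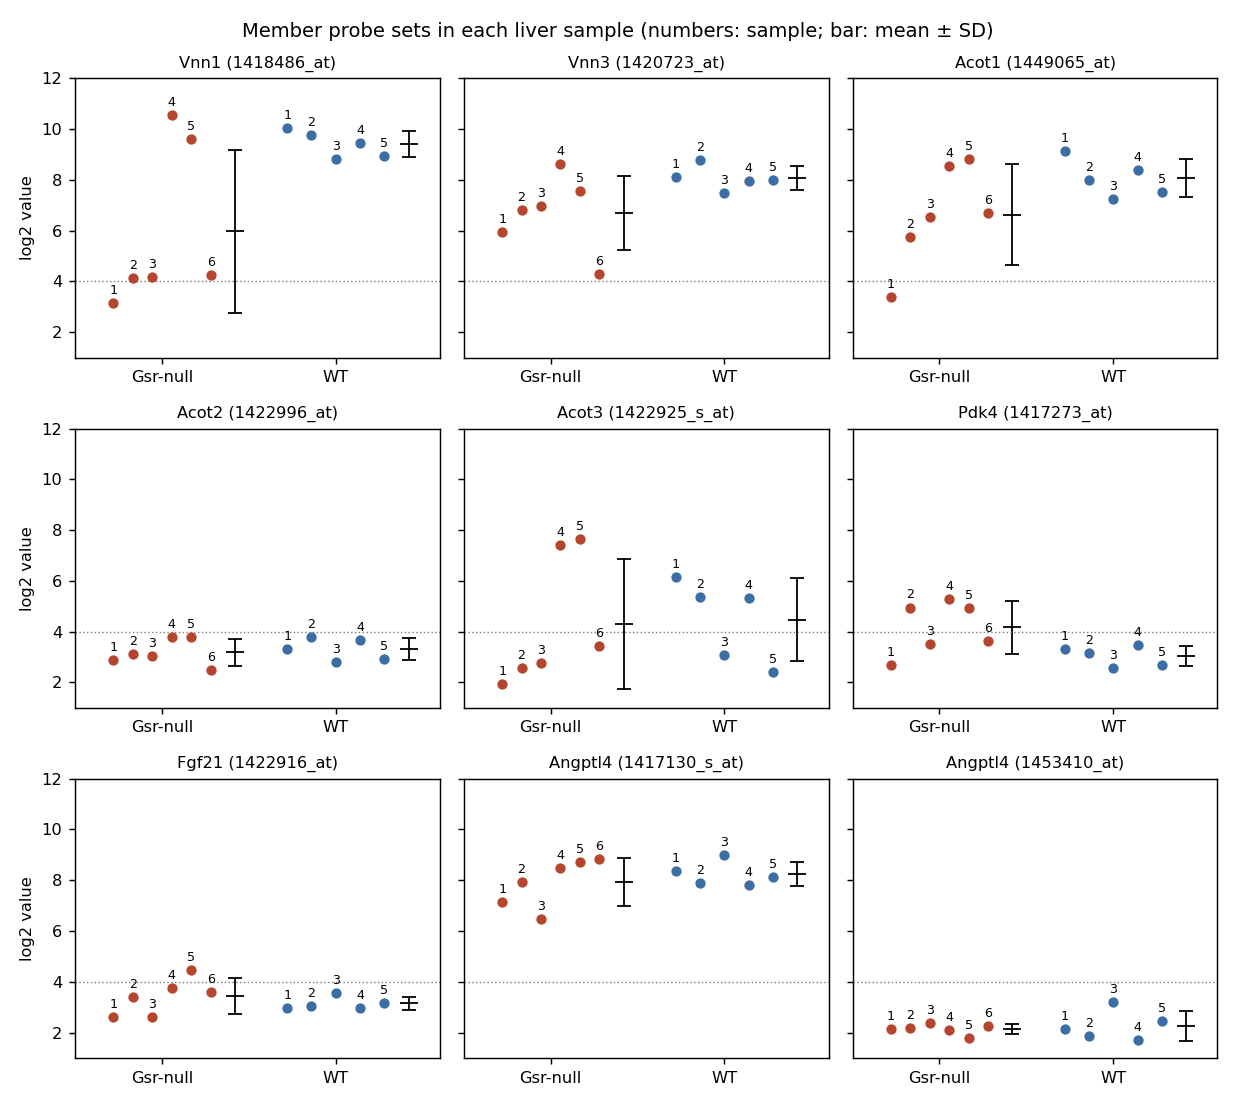
Each panel shows 1 member probe set, with the log2 value of every Gsr-null and WT liver (numbered points) and the mean ± SD (bar beside the points); the dotted line is the filter level of 4. Vnn1 in Gsr-null livers falls at 9.60 to 10.55 in samples 4 and 5 and at 3.15 to 4.26 in the other 4, while all 5 WT livers lie between 8.84 and 10.05.

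Acot1, the cytosolic long-chain acyl-CoA thioesterase, followed the same order. It was 3.39, 5.76, 6.55, 8.55, 8.81 and 6.70 in Gsr-null samples 1 to 6, against 9.15, 8.0, 7.26, 8.40 and 7.53 in WT samples 1 to 5. Samples 4 and 5 lay within the WT range and the 4 others below it. Acot1 differed by -1.44 between genotypes (SE 0.818, limma adjusted p = 0.731), and by -0.80 without Gsr-null sample 1.

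Acot3, a peroxisomal thioesterase, split the Gsr-null livers almost as widely as Vnn1. It was 1.93, 2.56, 2.76, 7.43, 7.64 and 3.43 in Gsr-null samples 1 to 6, against 6.15, 5.38, 3.09, 5.34 and 2.41 in WT samples 1 to 5. Here samples 4 and 5 lay above every WT sample, and the WT livers themselves fell into high and low values, which Vnn1 did not show. The means were 4.29 ± 2.56 in Gsr-null livers (SD, n = 6) and 4.47 ± 1.63 in WT livers (SD, n = 5), and the difference was -0.18 (SE 1.15, limma adjusted p = 0.999). The sign of that difference changed when single samples were left out.

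Acot2, the mitochondrial thioesterase, stayed below the filter level in all 11 samples, at 2.48 to 3.79 in Gsr-null livers and 2.81 to 3.78 in WT livers. Its 2 highest Gsr-null values were nevertheless those of samples 4 and 5, at 3.78 and 3.79. A further probe set that the annotation gives to both Acot1 and Acot2 was 3.73, 5.21, 5.04, 7.61, 7.0 and 5.22 in Gsr-null samples 1 to 6, against 6.92, 6.71, 5.40, 6.86 and 5.91 in WT samples 1 to 5. It had the order of Acot1, and the RNA of the 2 genes cannot be told apart on it. The Acot3 probe set and the higher of the Angptl4 probe sets are of a type that can bind several transcripts, so closely related genes may contribute to them.

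The fasting-induced genes outside the vanin and thioesterase families shared the order weakly, as Fgf21 did, or not at all. Pdk4, the kinase that switches off pyruvate dehydrogenase in fasting, was 2.70, 4.95, 3.50, 5.29, 4.93 and 3.63 in Gsr-null samples 1 to 6, against 3.30, 3.17, 2.58, 3.48 and 2.69 in WT samples 1 to 5. Sample 2, low for Vnn1, was as high for Pdk4 as sample 5, and 5 of 6 Gsr-null livers lay above every WT liver. Pdk4 passed 4 in 3 samples only and was fitted without the filter, with a difference of 1.12 (SE 0.431, limma adjusted p = 0.586).

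Fgf21, a hormone that the liver secretes in fasting, was near the floor throughout. It was 2.63, 3.41, 2.63, 3.77, 4.48 and 3.61 in Gsr-null samples 1 to 6, against 2.96, 3.05, 3.57, 2.98 and 3.18 in WT samples 1 to 5. Samples 5 and 4 were highest, but sample 6 lay within 0.16 of sample 4. The difference was 0.27 (SE 0.297, limma adjusted p = 0.873 without the filter).

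Angptl4, a secreted inhibitor of lipoprotein lipase, did not have the order. Its higher probe set was 7.15, 7.94, 6.48, 8.49, 8.72 and 8.85 in Gsr-null samples 1 to 6, against 8.35, 7.89, 9.0, 7.82 and 8.11 in WT samples 1 to 5. Sample 6, low for Vnn1 and lowest for Vnn3, was the highest for Angptl4. In both genotypes this probe set also followed the 3' minus 5' sets. Every sample of the lower set was at 7.94 or less and every sample of the higher set, sample 6 included, at 8.11 or more. The part of RNA integrity in this order was not tested. The difference was -0.30 (SE 0.413, limma adjusted p = 0.965), and it was -0.14 without Gsr-null sample 1 and -0.11 without WT sample 3. The other Angptl4 probe set stayed at 1.78 to 2.36 in Gsr-null livers and 1.69 to 3.2 in WT livers.

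By genotype, limma called 0 of the 5 tested member probe sets higher and 0 lower in Gsr-null livers, where 0.167% of all tested probe sets were called higher, 0.22% lower and 0.387% in all. At an unadjusted p under 0.05 there were 2, Vnn3 and also Vnn1, from which nothing is read as it was chosen on these values, against 8.36% of all tested probe sets, and with a trended and robust variance there were also 0 called. Without the filter 0 of all 9 were called, against 0.15% of all probe sets. Groups overlapped for all 9. Within the set of samples with a lower 3' minus 5' difference (3 Gsr-null, 2 WT) the difference between genotypes was -5.80 for Vnn1, -1.79 for Vnn3, -2.97 for Acot1 and -2.94 for Acot3. Within the higher set (3 and 3) it was -1.14, -1.05, 0.04 and 2.28 for the same genes. Acot1 and Acot3 were thus not lower in Gsr-null livers within the higher set, which holds Gsr-null samples 4 and 5. Sample 6 is of that set too and lay below every WT liver for Vnn1, Vnn3 and Acot1, but for Acot3 lay above WT samples 3 and 5 of the same set. The part of RNA integrity in these values was not tested.

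Counted over the 9 member probe sets, 6 had their 2 highest Gsr-null values in samples 4 and 5, namely those of Vnn1, Vnn3, Acot1, Acot2, Acot3 and Fgf21. This order was found in 11% of all probe sets and in 18.7% of the tested ones. With a gap of at least 1 between these samples and the next, 3 remained, Vnn1 at 5.34, Acot3 at 4.00 and Acot1 at 1.85, against 0.805% of tested probe sets. The gap was 0.58 for Vnn3, 0.64 for Acot2 and 0.16 for Fgf21. Since Vnn1 set the order and the members were chosen with it in view, these counts describe the members only.

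**Figure D2:**
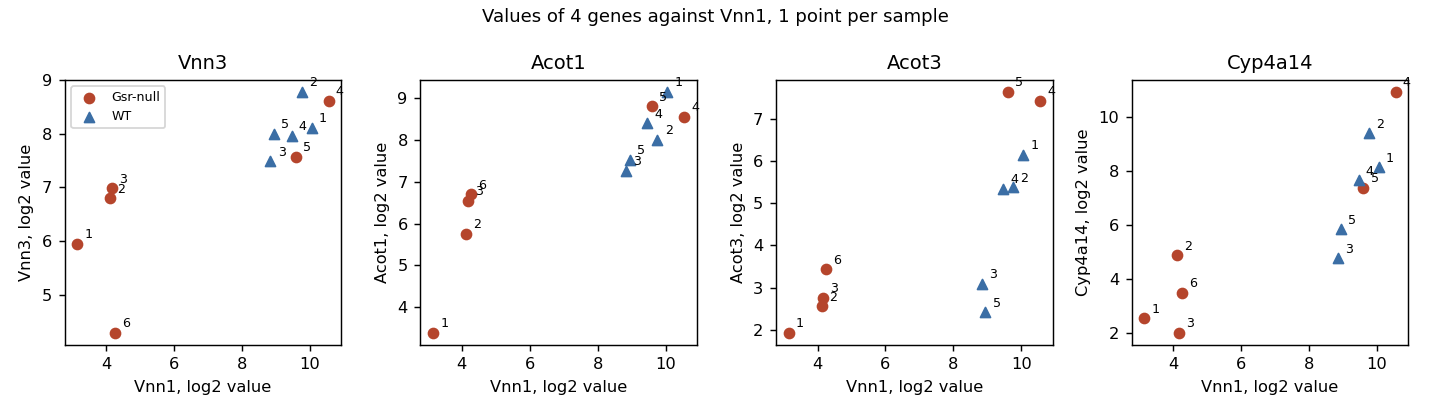
The log2 values of Vnn3, Acot1, Acot3 and Cyp4a14 are plotted against that of Vnn1 in the same sample, with Gsr-null livers as circles and WT livers as triangles, numbered by sample. Gsr-null samples 4 and 5 lie among or above the WT livers in each panel and samples 1, 2, 3 and 6 lie at the left, with Vnn1 at 4.26 or lower.

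The WT livers also had an order. Vnn1 was lowest in WT samples 3 and 5, at 8.84 and 8.94, and these 2 samples were also lowest for Acot1, at 7.26 and 7.53, for Acot2, at 2.81 and 2.93, and for Acot3, at 3.09 and 2.41. Pdk4 shared this order as well, while Vnn3, Fgf21 and both Angptl4 probe sets did not. In all 5 of 9 member probe sets had it, Vnn1 included, and 10.4% of all probe sets did. This order was looked for after the values had been seen. Both orders together, that of Gsr-null and that of WT samples, were found for the 4 probe sets of Vnn1, Acot1, Acot2 and Acot3 and for 1.4% of all. WT samples 3 and 5 are of the set with a higher 3' minus 5' difference, as is WT sample 1, which was highest for Vnn1, Acot1 and Acot3.

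All tested genes other than Vnn1, members included, were ranked by likeness to Vnn1. Likeness was taken as the mean absolute difference between a gene's deviations from its own WT mean and those of Vnn1 over the 6 Gsr-null samples. Vnn1 itself deviated by 3.88 on average, and the median over 6021 genes was 3.84. The 5 genes most like it were Cyp4a14 at 1.48, the member Acot1 at 2.21, Rgs16 at 2.26, Dbp at 2.30 and Cnmd at 2.42. Among the other tested members Vnn3 ranked 7 at 2.50, Acot3 ranked 66 at 3.25 and Angptl4 ranked 160 at 3.43.

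Cyp4a14, a fatty acid omega-hydroxylase and a classical PPAR-alpha target, was 2.55, 4.87, 2.00, 10.95, 7.39 and 3.49 in Gsr-null samples 1 to 6, against 8.14, 9.42, 4.76, 7.66 and 5.85 in WT samples 1 to 5. It had the Vnn1 order in both genotypes. Rgs16, a regulator of G protein signalling, measured 8.61 and 9.36 in Gsr-null samples 4 and 5 and 3.87 to 5.08 in the others, against 5.85 to 8.78 in WT livers.

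Dbp, a clock output factor, had the Vnn1 order by a gap of 0.07 only. It stood at 5.79 and 4.40 in Gsr-null samples 2 and 3 and 10.50 to 10.85 in the other 4, against 10.89 to 11.17 in WT livers. Samples 1 and 6, low for Vnn1, thus had Dbp near the WT level. Cnmd, which encodes chondromodulin, was 2.02 to 5.51 in Gsr-null livers and 5.24 to 6.92 in WT livers.

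Over all tested probe sets 77 had the Vnn1 order with a gap of at least 1 (0.805%), from 55 genes of 1 symbol. The count was 18 when sample 4 was left out and 12 without sample 5. In these 2 runs the pair of highest Vnn1 samples came to include sample 6, at 4.26, so another order was counted. They do not show how far the 77 depend on sample 4 or 5. Among probe sets of 1 symbol the largest gaps after Vnn1 belonged to Rgs16, Acot3, Ctse, Cd36 and Scd1. For Rgs16, Cd36 and Scd1 these gaps, of 4.22, 3.26 and 3.17, were on other probe sets than the values printed. On the probe sets of the printed values the gaps were 3.53, 2.29 and 1.25. Cd36, the fatty acid translocase, measured 10.50 and 10.26 in Gsr-null samples 4 and 5 and 6.64 to 7.97 in the others, against 6.76 to 9.06 in WT livers. Scd1, the stearoyl-CoA desaturase, was 14.00 and 13.78 in samples 4 and 5 and 11.81 to 12.54 in the others, against 12.67 to 13.71 in WT livers. Ctse, encoding cathepsin E, was 9.68 and 8.97 in samples 4 and 5 and 2.81 to 5.52 in the others, against 9.96 and 8.73 in WT samples 2 and 4 and 2.41 to 2.71 in WT samples 1, 3 and 5.

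The reverse order, with samples 4 and 5 lowest by at least 1, was found for 34 probe sets (0.356%) of 30 genes. The largest gaps belonged to Hsd3b5, Cdh1, Moxd1, Saa1 and Bcl6. For Saa1 this gap, of 2.57, was on another probe set than the values printed, whose gap was 2.30. Hsd3b5, a steroid reductase typical of male mouse liver, measured 6.52 and 7.74 in Gsr-null samples 4 and 5 and 11.11 to 11.95 in the others, against 11.31 to 11.86 in WT livers. Bcl6, a transcriptional repressor that in mouse liver opposes PPAR-alpha at its target genes, was 5.04 and 5.27 in samples 4 and 5 and 7.77 to 9.89 in the others, against 5.63 to 8.97 in WT livers. Saa1, an acute phase protein, was 10.41 and 10.61 in samples 4 and 5 and 12.92 to 14.11 in the others, against 7.97 to 12.04 in WT livers. Cdh1, encoding E-cadherin, was 6.14 and 5.00 in samples 4 and 5 and 8.89 to 10.01 in the others.

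**Figure D3:**
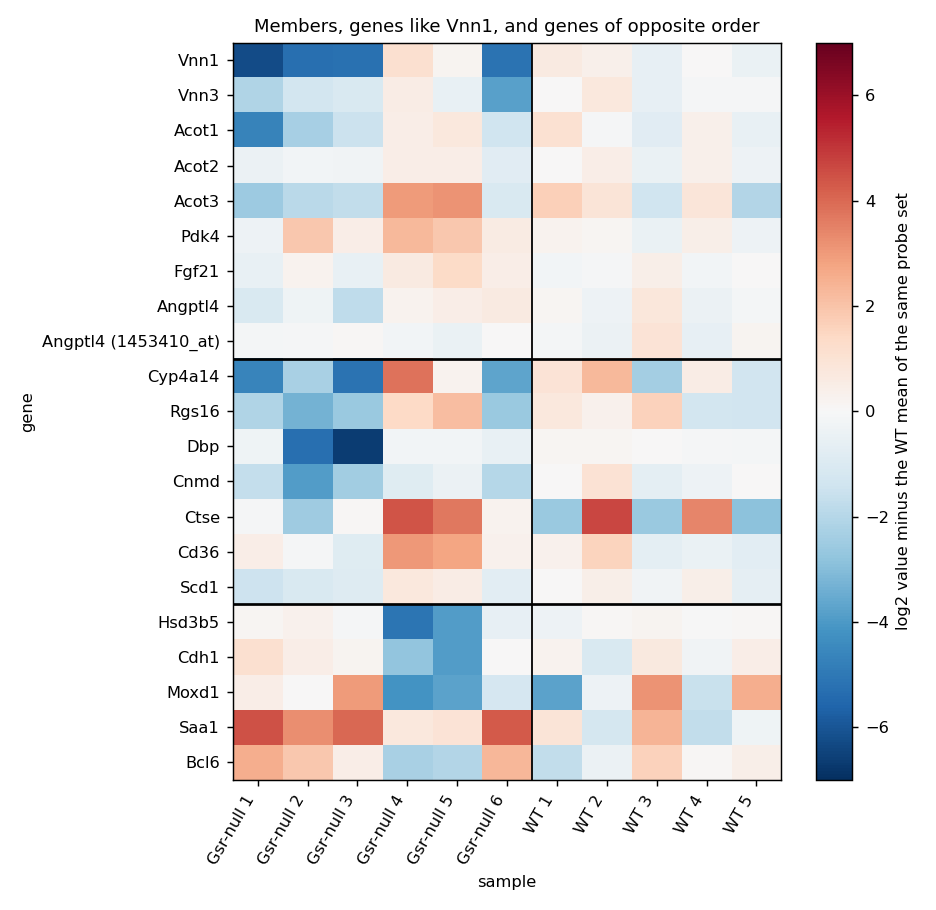
Colour gives the log2 value minus the WT mean of the same probe set, with Gsr-null livers on the left and WT livers on the right; the blocks from top to bottom are the members, genes like Vnn1 or in its order, and genes in the reverse order. In Gsr-null samples 4 and 5 the colours of Vnn1, Acot1, Acot3 and Cyp4a14 are at or above the WT level and those of Hsd3b5, Cdh1 and Moxd1 below it.

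The pathways around the members were followed with 7 lists of 133 genes, of which 95 were tested. Limma called 0 of the 95 by genotype, against 0.432% of all tested genes, and 0 with a trended and robust variance, while 7 had an unadjusted p under 0.05, against 8.78% of all genes. The median difference over the 95 genes was -0.073, and -0.032 over all genes. Against this, 51 of the 95 had the Vnn1 order among Gsr-null samples (53.7%), where 21.4% of all tested genes did, and 12 had it with a gap of at least 1 (12.6%), against 0.864%. The lists were drawn up with the Vnn1 values known, and these shares were not tested.

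PPAR-alpha targets and fatty acid oxidation genes had the Vnn1 order in 25 of 33 tested members, mostly with small gaps, and 4 had a gap of at least 1. Ehhadh, the peroxisomal bifunctional enzyme, measured 11.04 and 10.87 in Gsr-null samples 4 and 5 and 9.07 to 9.95 in the others, against 10.06 to 10.78 in WT livers. Cpt1a, the carnitine transferase that admits fatty acids to mitochondria, was 9.85 to 11.90 in Gsr-null livers without this order, against 9.76 to 11.97 in WT livers. Ppara itself was 9.02 to 10.32 in Gsr-null livers and 9.15 to 10.78 in WT livers (difference -0.12, limma adjusted p = 0.99). Creb3l3, a liver factor that acts with PPAR-alpha, was 9.61 to 10.13 in Gsr-null livers and 9.58 to 10.22 in WT livers. Of this list the smallest p belonged to Eci2, an enoyl-CoA isomerase, at -0.62 (SE 0.228, limma adjusted p = 0.445).

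Genes of feeding and lipogenesis shared the order in 11 of 13 tested members, 8 of them with a gap of at least 1 on their representative probe set. Besides Scd1, values in Gsr-null samples 4 and 5 were 11.32 and 10.32 for Elovl6, a fatty acid elongase, and 5.37 to 7.68 in the others, against 7.38 to 8.99 in WT livers. Me1, the cytosolic malic enzyme that supplies NADPH, was 11.45 and 10.86 in samples 4 and 5 and 7.26 to 9.06 in the others, against 8.55 to 10.94 in WT livers. Fasn, fatty acid synthase, was 11.83 and 11.22 in samples 4 and 5 and 8.04 to 10.13 in the others, against 9.49 to 10.97 in WT livers. Lpin2, a phosphatidate phosphatase with the smallest p of the list, differed by -0.90 (SE 0.308, limma adjusted p = 0.389). Elovl6, Me1 and Fasn were picked as examples after their values were seen.

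Genes of fasting and gluconeogenesis had the Vnn1 order in 1 of 17 tested members, with 0 at a gap of at least 1 and 2, Bcl6 and Asns, in the reverse order. Pck1, the rate-limiting enzyme of gluconeogenesis, was 10.92 to 13.14 in Gsr-null livers and 11.05 to 12.39 in WT livers. G6pc, which releases glucose, was 8.55 to 11.40 in Gsr-null livers, highest in sample 2, and 8.62 to 9.96 in WT livers. Igfbp1, an insulin-repressed binding protein of insulin-like growth factors, was 5.66 to 6.48 in Gsr-null livers and 3.74 to 7.43 in WT livers. Insig2, which retains the SREBP cleavage machinery in the endoplasmic reticulum, had the smallest p of the list, with a difference of 1.15 (SE 0.449, limma adjusted p = 0.487).

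Coenzyme A synthesis and pantetheine genes had the order in 7 of 10 tested members, 0 of them with a gap of 1. Pank1, the kinase that commits pantothenate to coenzyme A, measured 11.71 and 11.48 in Gsr-null samples 4 and 5 and 10.48 to 10.94 in the others, against 10.93 to 11.51 in WT livers. The smallest p belonged to Fmo1, a flavin-containing monooxygenase, at 0.37 (limma adjusted p = 0.717). Other acyl-CoA thioesterases had the order in 4 of 6 tested members, 0 with a gap of 1. Among them Acot8 was 5.66 to 6.68 in Gsr-null livers and 5.7 to 6.19 in WT livers, and Acot12 was 7.47 to 8.96 in Gsr-null livers and 8.3 to 9.04 in WT livers. Acot13 had the smallest p, at -0.33 (limma adjusted p = 0.897). Acot4, of the same gene family as Acot1 to Acot3, did not pass the filter. It read 6.14 and 5.60 in Gsr-null samples 4 and 5 and 2.83 to 3.33 in the others, against 2.69 to 4.85 in WT livers.

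The pyruvate dehydrogenase complex and its regulators had the order in 3 of 7 tested members. Pdk2, the kinase of the same family as Pdk4 that prevails in fed liver, had the smallest p of any pathway gene. It was 6.77, 7.19, 5.40, 5.70, 7.03 and 7.05 in Gsr-null samples 1 to 6, against 8.01, 8.0, 7.86, 7.24 and 7.89 in WT samples 1 to 5. The groups did not overlap, as for 1.36% of tested probe sets, and the difference was -1.28 (SE 0.33, limma adjusted p = 0.186). Pdk1 was 7.71 to 10.13 in Gsr-null livers and 7.83 to 9.97 in WT livers. The FGF21 and angiopoietin-like axis had the order in 0 of 9 tested members. Klb, the co-receptor of FGF21, was 4.26 to 5.51 in Gsr-null livers and 5.30 to 6.65 in WT livers, a difference of -0.81 (SE 0.27, limma adjusted p = 0.363).

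**Figure D4:**
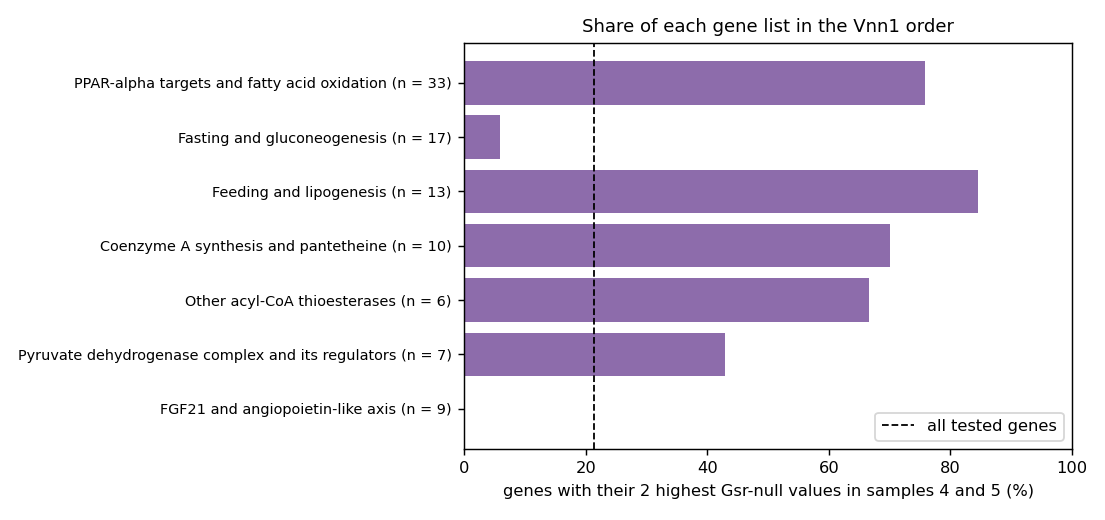
Bars give the share of tested genes of each list whose 2 highest Gsr-null values were in samples 4 and 5, with the number of tested genes in brackets, and the dashed line gives that share over all tested genes (21.4%). The lipogenesis list (11 of 13) and the PPAR-alpha list (25 of 33) lie above the line, and the fasting list (1 of 17) and the FGF21 list (0 of 9) below it.

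Acute phase genes and 2 NRF2 targets were read beside these values, since they too are uneven among Gsr-null livers. Lcn2, a secreted iron-siderophore binding lipocalin, was 13.03, 8.25, 10.27, 5.90, 7.50 and 12.58 in Gsr-null samples 1 to 6, against 3.53 to 5.79 in WT livers (limma adjusted p = 0.146). Its lowest Gsr-null values were in samples 4 and 5, the samples with high Vnn1, but they lay above every WT liver. Orm2, an orosomucoid secreted by hepatocytes, was likewise lowest in sample 4, at 6.37, though sample 5, at 7.51, lay above sample 2, at 7.14, against 4.67 to 5.30 in WT livers (limma adjusted p = 0.112). Nqo1, a quinone reductase, did not pass the filter. It was 4.10 and 4.45 in samples 4 and 5 and 2.82 to 3.02 in the others, against 2.04 to 3.30 in WT livers. Srxn1, sulfiredoxin, was 8.58 and 8.72 in samples 4 and 5 and 7.74 to 7.98 in the others, against 7.46 to 7.73 in WT livers (limma adjusted p = 0.494). The part of an acute phase state in the Vnn1 values was not tested. The 5 neutrophil markers summed to 16.4 to 25.5 in Gsr-null livers and 16.4 to 18.0 in WT livers, with 1 of 5 above the filter. The upper end was that of Gsr-null sample 1 alone, where S100a8 was 6.63 and S100a9 was 6.50. In the other Gsr-null livers these were 2.72 to 3.63 and 2.74 to 3.49.

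Genes beside the members on the chromosome were read in the same way. Of the 5 nearest tested genes on each side of Vnn1, 2 had its order, Ccn2 and Vnn3, which is itself a member. Limma called 0 of 10 and 1, Vnn3, had an unadjusted p under 0.05. Over all tested genes 21.4% had the order, 0.432% were called and 8.78% had an unadjusted p under 0.05. Moxd1, on the other side of Vnn1 from Vnn3, had the reverse order, at 1.48 and 1.92 in Gsr-null samples 4 and 5 and 4.52 to 8.68 in the others, and was 1.91 to 8.81 in WT livers. The remaining neighbours of Vnn1 were Hbs1l, Aldh8a1, Sgk1, Tcf21, Stx7, Enpp3 and Arg1. Ccn2, a matricellular growth factor, was 5.97 and 5.94 in samples 4 and 5 and 2.80 to 4.44 in the others, against 4.11 to 4.47 in WT livers. Around Acot1 to Acot3, limma called 0 of 10 neighbours, and 0 had an unadjusted p under 0.05. The order was found for 5 of the 10, against 21.4% of all tested genes, with gaps of at most 0.43. These were Pcnx, Riox1, Ptgr2, Coq6 and Entpd5, and the others Med6, Rbm25, Numb, Zfp410 and Aldh6a1.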

How the data were processed

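Per the labels' protocols, total RNA from 6 Gsr-null and 5 WT livers was purified (RiboPure) and biotin-labelled. The deposited table holds 1 log2 value per probe set and sample; the submitters' processing notes name GCRMA as what the authors ran, without a version. The log2 scale is read from the range of the values. No batch or depth is given, and the number of arrays limits the precision. Samples are biological replicates by title, with no litter named, so p-values measure the spread between these samples.

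Of 22690 probe sets 64 controls were left out, and the 9560 exceeding 4 (log2) in 5 or more samples entered lmFit and eBayes of limma 3.58.1 (R 4.3.3), adjusted by Benjamini-Hochberg over all of them, with a call at an adjusted p under 0.05. On simulated data for the Gsr-null against WT comparison over 9560 probe sets the fit recovered 67% of planted changes of 1 and 96% of changes of 2 (log2), and 6.32% of calls were not planted. Recovery was not tested for probe sets as uneven among Gsr-null livers as Vnn1 (SD 3.22) or Acot3 (SD 2.56). In WT livers these had an SD of 0.519 and 1.63. The recovery rates are therefore not applied to the members. Each gene's representative was the tested probe set of highest mean value. Figures used matplotlib 3.10.9.

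The members and lists were chosen with earlier results of these data known. Named genes are the members, the 5 most like Vnn1, 5 with the largest gap in each order, the smallest p of each list, a fixed set of genes (some of which are not reported here) and the chromosomal neighbours. Alternatives were filters, scaling, variance models, array weights, blocks, thresholds and omitted samples. Shared replicate numbers are no pairing here, since correlations of deviations within a number were -0.243 to 0.0361.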

Additional observations from a re-analysis of the deposited data

Results flagged for a closer look

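Among 126 sets of values, each a gene in 1 genotype, 5 held an isolated highest or lowest sample; chance alone gives about 1 in 20, or 6.3. For Pck1 this was WT sample 2 at 11.05, the other WT livers lying at 12.03 to 12.39. For Pdk2 it was WT sample 4 at 7.24, the other WT livers lying at 7.86 to 8.01. The Vnn1 neighbour Stx7 was 5.01 in Gsr-null sample 6, against 5.90 to 6.09 in the other Gsr-null livers. Near the Acot genes, Rbm25 was 7.34 in Gsr-null sample 3, against 7.98 to 8.33, and Zfp410 was 7.43 in Gsr-null sample 2, against 6.71 to 6.84 in the other Gsr-null livers. None of the member probe sets was among these.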

How the results depend on the processing

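The counts of called member probe sets and of called list genes, 0 in each direction, were 0 under every alternative run, at an adjusted p under 0.1 too. Vnn1 kept its sign in 21 alternatives, at -4.35 to -2.52, as did Vnn3 (-1.75 to -0.88) and Acot1 (-1.88 to -0.80). Nothing is read from the kept sign of Vnn1, as it was chosen on these values. Acot3 has no settled sign: -0.18 became 0.67 with array weights, 0.63 without Gsr-null samples 2 and 3, and -0.85 to 0.29 on leaving out 1 sample, positive without Gsr-null sample 1, 2 or 3 (0.29, 0.16, 0.12) or WT sample 1, 2 or 4 (0.24, 0.04, 0.03). Angptl4 became 0.07 without Gsr-null samples 2 and 3, and was 0.00 to 2 decimals without sample 3 alone. In all, 95 of 104 values of members, those of Vnn1 included, kept sign and side of the threshold and 9 changed sign. With the replicate number as a block, on the 5 pairs without Gsr-null sample 6, Vnn1 was -3.09, Vnn3 -0.88, Acot1 -1.46, Acot3 -0.01 and Angptl4 -0.48, and the Gsr-null sample of its own number was the best match for 0 of 5 WT samples.

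The 77 probe sets in the Vnn1 order became 250 with a gap of 0.5 and 25 with a gap of 2, and the 34 in the reverse order became 97 and 10, by construction. Leaving out 1 Gsr-null sample gave 12 to 109 and 37 to 98. For the reverse order 81, 54 and 98 stood without sample 4, 5 or 6. Without sample 4 or 5 the pair of highest Vnn1 samples came to include sample 6, so the counts of those runs are of another order. The 1125 tested probe sets with the WT order of Vnn1 became 2361 of all probe sets without the filter, where more enter; the settings for this count were chosen after the data were seen. Probe sets near the floor (Acot2, Fgf21, Pdk4 and 1 of Angptl4) were fitted only without the filter.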

Other observations

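Cidec, a lipid droplet protein of fat cells that also appears in fatty liver, did not pass the filter and was not among the genes named by rule. It was chosen after its values were seen. Its values were 8.46 in Gsr-null sample 4, 8.04 in sample 5 and 2.53 to 2.87 in the other 4, against 2.46 to 3.17 in WT livers. The measured adipocyte markers had 0 of 2 members above the filter, and their highest value was 1.80. Lpl, lipoprotein lipase, the target of Angptl4, reached 9.01, 6.82 and 8.39 in Gsr-null samples 1, 2 and 3 and 5.5 to 5.81 in samples 4, 5 and 6, against 5.26 to 6.11 in WT livers (difference 1.18, limma adjusted p = 0.662). The 3 high samples are those of the lower 3' minus 5' set, and WT samples 2 and 4 of that set were at 5.69 and 5.56.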
